A study of Drosophila melanogaster with 4 samples.

Results

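The 5 genes nub, pdm2, vg, sd and ap encode transcription factors, and in vg a cofactor, that give the Drosophila wing its identity, and their open chromatin was compared between pupal wings with and without targeted degradation of Osa. Open regions were taken from peak lists of FAIRE-seq, an assay that sequences the DNA left unbound after formaldehyde crosslinking because it holds few nucleosomes. A region was counted for a gene when a peak summit lay in the gene's body or within 20 kb of it on dm6, after overlapping peaks of the 4 lists had been merged. This gave 102 regions of 24088 in all. Of the 102, 3 lay in the windows of both nub and pdm2 and were counted once in the total.

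As background, nub (nubbin, also called pdm1) and its neighbour pdm2 encode POU-domain transcription factors, and nub is required for growth and patterning of the wing. The product of vg (vestigial) does not bind DNA by itself. It acts in a complex with Scalloped, the TEAD-domain protein encoded by sd, and this complex is the wing selector that turns on wing genes. Scalloped also serves the Hippo pathway as the DNA-binding partner of Yorkie. The LIM-homeodomain protein encoded by ap (apterous) selects dorsal fate and sets up the dorsal-ventral boundary from which the wing margin forms. Osa, an ARID protein, belongs to the Brahma (SWI/SNF) complex, which moves and ejects nucleosomes.

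Wings came from female pupae homozygous for osa-GFP, a GFP-tagged osa allele, and all animals carried UAS-Nslmb-vhhGFP, an F-box fragment fused to an anti-GFP nanobody (deGrad) that sends GFP-tagged proteins to degradation. The Osa-deGrad genotype also carried the driver nub-GAL4, which turns the transgene on, and the control genotype did not. Per the labels' protocols, animals grew at 23 °C and were shifted to 29 °C as wandering larvae. Prepupae aged 0 to 12 h after puparium formation (APF) were collected, and 24 h afterwards, when the pupae were 24 to 36 h APF, 40 wings were taken for each library. Each genotype had 2 libraries, and the labels do not say that they came from separate crosses. A driver that follows nub acts where nub is active, so other cells of the dissected wing could keep Osa. In such bulk tissue, fewer cells with an open region and less openness per cell cannot be told apart. The labels do not give the insertion site of nub-GAL4. The driver and the chromosome that carries it were present in the Osa-deGrad libraries alone. At nub and its neighbour pdm2, effects of the driver's insertion or of linked sequence cannot be told apart from effects of Osa degradation. As the insertion site is not given, the same holds for linked sequence at vg, sd and ap.

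The lists held 13959 and 17048 peaks in Osa-deGrad replicates 1 and 2 and 13953 and 18007 in control replicates 1 and 2, so list length went with the replicate number. Read counts are unknown from these files. All 6 wing epithelium genes checked (nub, vg, sd, ap, rn and bs) had a peak within 500 bp of a gene end in all 4 libraries. Of these, nub, vg, sd and ap are genes under study and bs is among the targets below, so the check is not independent of them. The muscle list had such a peak in 1 or 2 of 3 genes per library, the hemocyte list in 1 or 2 of 4, the list for neurons and glia in 2 or 3 of 4, the tracheal list in 1 of 2 and the fat body list in 0 or 1 of 2. Mhc, Hml, NimC1, nSyb, btl and Fbp1 had none in any library. Other genes of these lists did: Mef2, crq, elav, repo and trh in all 4 libraries, brp and Lsp2 in 3, and Act88F and srp in 1. An open region is not expression, and the part of other cell types in the results was not tested.

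Few open regions of the 5 genes were found in both libraries of 1 genotype and in neither of the other. Osa-deGrad replicates 1 and 2 had peaks in 54 and 71 of the 102 regions, and control replicates 1 and 2 in 57 and 69. Counts of the genotypes overlapped, and the higher pair was the longer lists of replicate 2. All 4 lists held 37 of the regions, or 36.3%, beside 32.8% of all merged regions. Another 42 (41.2%) were in 1 list only, beside 34.4% of all regions, and 20 were in 2 or 3 lists of both genotypes. Only 2 regions had a peak in both Osa-deGrad lists and in no control (2.20% of all regions were of this kind), and 1 was in both control lists alone (3.58% of all regions). Shares near the background are no result about the 5 genes, and counts of 2 and 1 are too few to set apart from it. Of the 2 Osa-deGrad regions both lay near ap, and the control region lay near nub. With 2 libraries against 2, an exact two-sided permutation test cannot give a p below 0.333, so none was run.

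**Figure D1:**
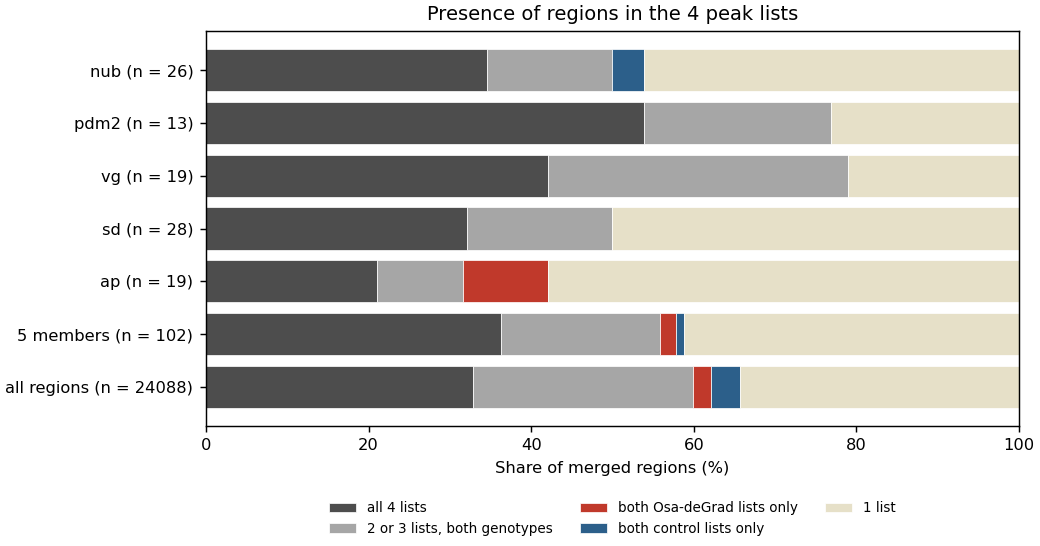
Share of merged regions (%) by presence in the 4 peak lists, for each gene, the 5 genes together and all 24088 regions. The share in all 4 lists ran from 21.1% at ap to 53.8% at pdm2, and regions in both lists of 1 genotype alone made up at most 10.5%, at ap.

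The genes differed in how many open regions surrounded them. The sd window held 28 regions, nub 26, vg 19, ap 19 and pdm2 13. Regions in all 4 lists numbered 9 at nub, 7 at pdm2, 8 at vg, 9 at sd and 4 at ap. Per 10 kb of window these were 1.12 at nub, 1.01 at pdm2, 1.45 at vg, 1.42 at sd and 0.652 at ap, against a median of 0.734 (quartiles 0.386 and 1.21) over 13921 protein-coding genes. The windows of vg and sd each touched 15 other annotated genes, that of ap 3. Many regions thus lay near ends of other genes. Of the 37 regions in all 4 lists, 18 lay with the summit no more than 500 bp from a gene end. For 14 of these it was the end of another gene. Which gene a region serves was not tested. The share near a gene end, 48.6%, was close to the 49.3% of all regions in all 4 lists.

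Strength was described within each list by the percentile of the authors' −log10 q value, where 100 is the strongest peak. Because lists of different length give percentiles that are not comparable, regions in all 4 lists were also ranked among themselves in each library, so that every rank is a percentile of the same 7900 regions. The 2 genotypes were called separated at a region when both Osa-deGrad ranks lay above, or both below, the 2 control ranks. Among the 37 regions the Osa-deGrad ranks lay above in 6 (16.2%) and below in 8 (21.6%), and the genotypes overlapped in the other 23. Over all 7900 regions the shares were 18.0% above and 17.6% below. Ranks also differed between replicates of a genotype, and a mean of 2 libraries varies less than a single one. The median gap between the 2 Osa-deGrad replicates was 18.8 percentile points, that between the 2 controls 18.1, and that between genotype means 10.9.

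**Figure D2:**
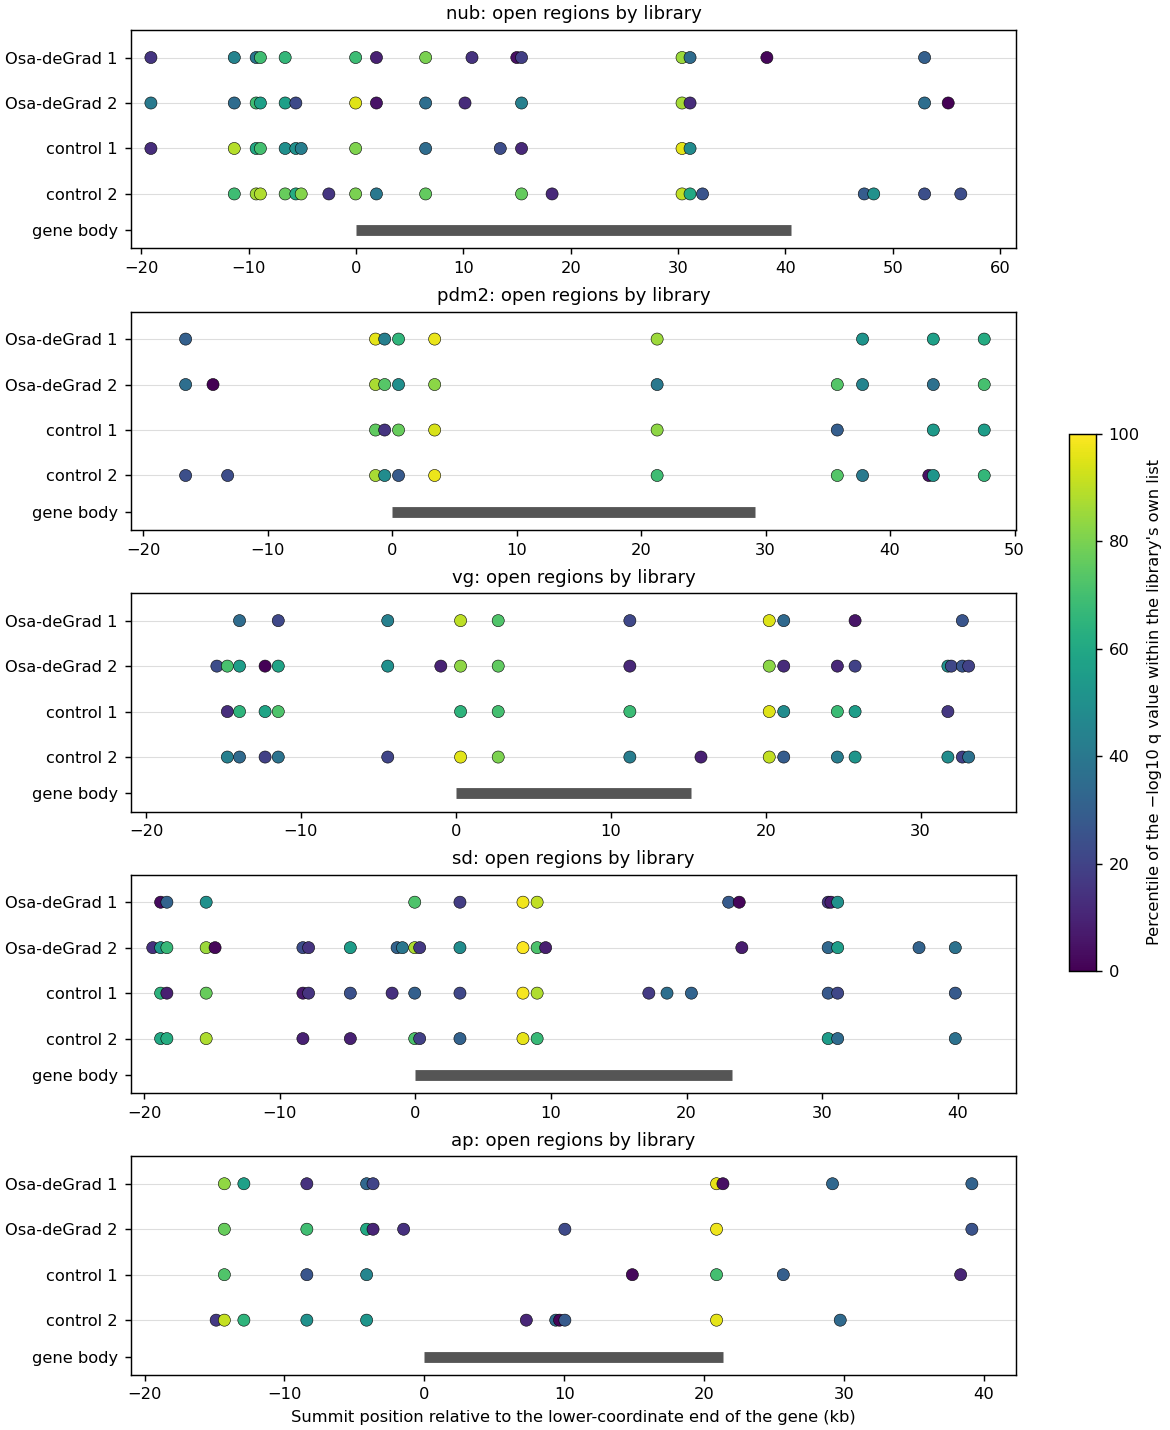
Position of every region within 20 kb of the 5 genes, in kb from the lower-coordinate end of the gene, with 1 row per library. Colour gives the percentile of the −log10 q value within that library's own list, and the grey bar is the gene body. The brightest regions recur in all 4 rows, while 42 of the 102 regions stand in 1 row.

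The nub locus (2L, 12587625 to 12628135, Dmel_CG34395) showed separated ranks in 1 direction. Of its 9 regions in all 4 lists, 4 ranked lower in both Osa-deGrad libraries than in both controls and 0 ranked higher, beside 17.1% lower and 18.1% higher over the 1279 such regions of arm 2L. The largest difference lay 11337 bp before the lower-coordinate end of nub (2L, 12576097 to 12576577), between annotated genes. The gene table gives no strand, so "before" and "past" mean lower and higher coordinates. Its ranks were 24.8 and 11.6 in Osa-deGrad wings, against 81.5 and 40.5 in controls, or 18.2 ± 9.30 against 61.02 ± 29.0 (SD, n = 2 each). Both Osa-deGrad values lay below both controls, but the gap between the controls was nearly as wide as that between genotypes. The authors' fold enrichment there was 4.68 and 3.61 in Osa-deGrad lists, against 9.66 and 6.67 in controls.

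A second region on that side, at 12578612 to 12579321 ranked at 51.9 and 29.1 in Osa-deGrad wings, against 54.8 and 73.8 in controls. The genotypes were separated there, but the difference was only -2.82 points between the replicates 1 and -44.7 between the replicates 2. The region beside it, at 12578084 to 12578452, ranked at 20.4 and 44.2 in Osa-deGrad wings, against 42.2 and 70.3 in controls, where the genotypes overlapped although both replicate pairs had the control higher. Inside nub and the overlapping gene Ref2, a pair of neighbouring regions was also lower. The first (12617784 to 12618539), the strongest of nub by mean rank, stood at 74.3 and 72.5 in Osa-deGrad wings, against 93.2 and 79.0 in controls. The second (12618570 to 12618914) stood at 17.3 and 2.33 against 29.7 and 29.4. As Ref2 overlaps the upper end of nub, these regions cannot be assigned to 1 of the genes.

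The region at the lower-coordinate end of nub did not share this order. Its summit lay 34 bp outside the gene (12586843 to 12588089), and its ranks were 51.2 and 89.9 in Osa-deGrad wings, against 69.0 and 58.4 in controls. The Osa-deGrad replicates enclosed both controls. In the body of nub, the region at 12593785 to 12594656 ranked at 66.8 and 12.0 in Osa-deGrad wings, against 18.8 and 51.3 in controls, with opposite signs in the replicate pairs, and the region at 12602922 to 12603381 at 7.46 and 17.2 against 4.65 and 51.8. The genotypes overlapped at both, and also at the remaining nub region in all 4 lists (12580633 to 12581221), at 48.2 and 29.0 against 31.4 and 52.7.

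Between these outer regions and the gene lay the only region of the 5 genes found in both controls alone (12582400 to 12582829, 5104 bp before nub). It overlaps the annotated RNA genes lncRNA:CR44596 and lncRNA:CR44595. It stood at percentiles of 42.5 and 81.3 in the lists of control replicates 1 and 2, with fold enrichments of 4.55 and 7.92. A region next to it (12581925 to 12582362) was in both control lists, at percentiles of 50.1 and 61.5, and in Osa-deGrad replicate 2 at 22.3, but not in Osa-deGrad replicate 1. Of the regions found in 1 list, 6 of 12 at nub came from control replicate 2, the longest list, beside 2730 of 8275 over all regions.

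The pdm2 gene (2L, 12657165 to 12686306, Dmel_CG12287) begins 29030 bp beyond the upper end of nub, and its separated ranks pointed the other way. Of 7 regions in all 4 lists, 3 ranked higher in Osa-deGrad and 0 lower, beside 18.1% higher and 17.1% lower on arm 2L. That nub and pdm2 differ in this was not tested. Next to its lower-coordinate end lay a pair of these. The region 1325 bp outside the gene (12655719 to 12656216) ranked at 92.9 and 74.1 in Osa-deGrad wings, against 61.9 and 71.7 in controls. The one 591 bp outside (12656456 to 12656889) ranked at 23.0 and 50.9 against 6.34 and 17.5, or 36.9 ± 19.7 against 11.9 ± 7.88 (SD, n = 2 each). Every Osa-deGrad value exceeded every control value at both, by as little as 2.45 points in replicate 2 at the first. The third (12704240 to 12704867) had its summit 2 bp from an end of spict, 18421 bp from pdm2, with ranks of 41.9 and 46.3 against 36.9 and 36.6.

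Regions inside pdm2 overlapped between genotypes. The strongest (12660163 to 12660864) ranked at 93.9 and 65.3 in Osa-deGrad wings, against 89.5 and 93.6 in controls, and only Osa-deGrad replicate 2 stood apart. In the lists as deposited it was at percentiles of 96.5 and 82.5 for Osa-deGrad, against 93.8 and 97.2 for controls. The region 523 bp inside the gene (12657516 to 12657878) ranked at 47.0 and 22.2 against 63.3 and 5.80, so the control replicates enclosed the Osa-deGrad ones. The region at 12678353 to 12679078 ranked at 75.1 and 15.1 against 72.2 and 40.3. Replicate 2 was the lower library in both genotypes there. The last shared region, at CG17036, ranked at 36.8 and 12.7 against 35.9 and 20.5.

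**Figure D3:**
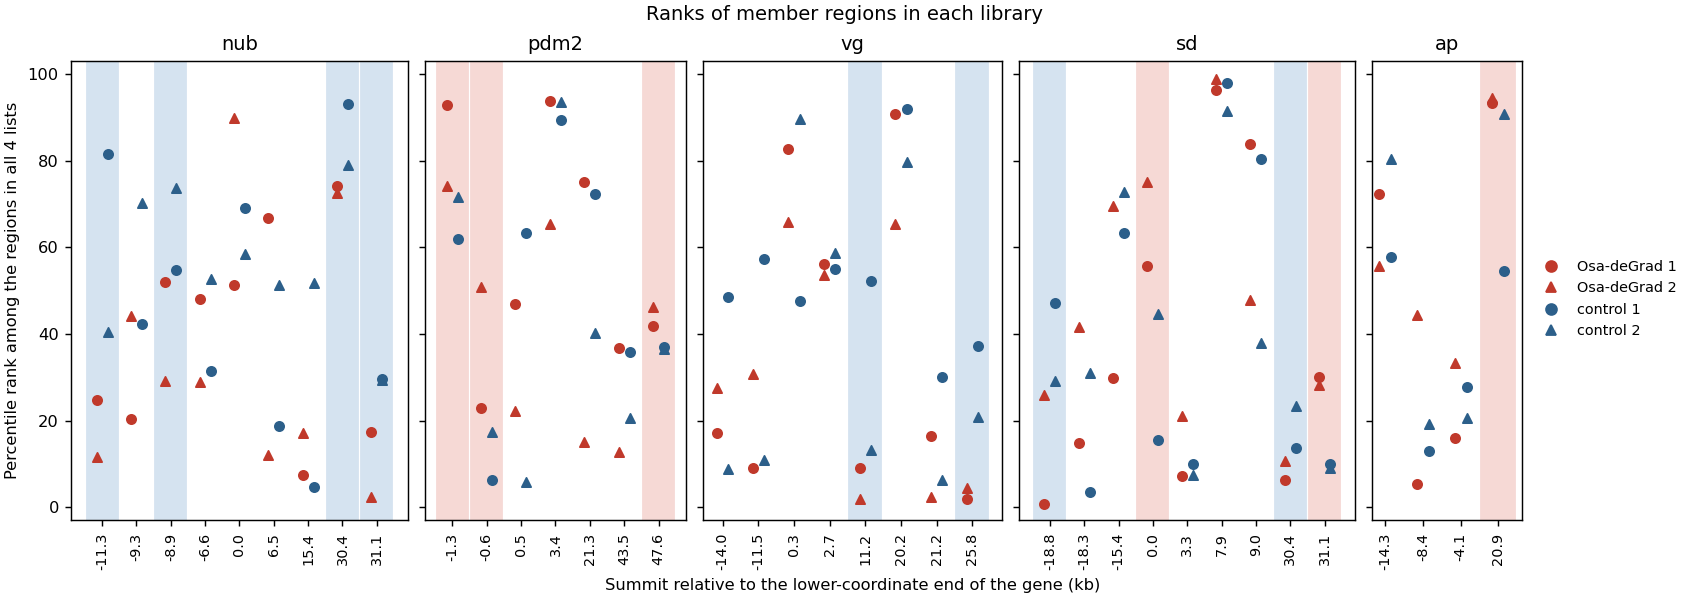
Percentile rank of each region in all 4 lists among the 7900 such regions, by library; red points are Osa-deGrad, blue points control, circles replicate 1 and triangles replicate 2. Blue bands mark the 8 regions where both Osa-deGrad ranks lay below both controls (4 of them at nub) and red bands the 6 where they lay above (3 at pdm2).

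For the Vestigial-Scalloped complex, the vg locus (2R, 12884201 to 12899385, Dmel_CG3830) held its strong regions in all 4 lists. It had 2 regions that ranked lower, beside 18.2% lower and 19.2% higher among the regions of arm 2R in all 4 lists. No vg region ranked higher. By mean rank, the strongest of its 8 regions in all 4 lists lay 5048 bp past the upper end of vg. This region lay in lncRNA:CR46336 (12903914 to 12904918). It ranked at 90.7 and 65.3 in Osa-deGrad wings, against 92.0 and 79.7 in controls. The region 305 bp inside the lower-coordinate end of vg (12884320 to 12884806) ranked at 82.7 and 66.0 against 47.7 and 89.7. Genotypes overlapped at both, and at the second the control replicates enclosed the Osa-deGrad ones.

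A further region in the body of vg (12886415 to 12887282) was the steadiest of the locus, at 56.3 and 53.6 in Osa-deGrad wings, against 54.9 and 58.6 in controls. The region 3950 bp inside the upper end of vg (12895324 to 12895794) was one of the lower ones. It ranked at 9.01 and 1.98 in Osa-deGrad wings, against 52.3 and 13.3 in controls, or 5.49 ± 4.97 against 32.8 ± 27.6 (SD, n = 2 each). The other, 10590 bp past the gene and between annotated genes (12909584 to 12910130), ranked at 1.82 and 4.52 against 37.3 and 20.7, or 3.17 ± 1.91 against 29.01 ± 11.7. All Osa-deGrad values were below 10 at both regions, and all control values were above 10. In the body region the peaks of the 2 Osa-deGrad libraries did not overlap each other and were joined only through the control peaks. Without control replicate 2, no region at the summit of either lower region was in all remaining lists. The deposited −log10 q values recur, and the neighbour at 12908708 to 12909364 was missing from Osa-deGrad replicate 1, stood at a percentile of 11.2 in Osa-deGrad replicate 2, and at 68.2 and 41.9 in the control lists, each tied with the body region's value in that list. Of 19 vg regions, 4 were missing from Osa-deGrad replicate 1 alone and 2 from control replicate 1 alone. Over all 24088 regions these counts were 1359 and 1959. Those were the shortest lists, of nearly equal length, and the cause of the order at vg was not tested. The remaining vg regions in all 4 lists overlapped between genotypes. That 13 bp from bic ranked at 17.2 and 27.6 against 48.5 and 8.77, that 19 bp from asRNA:CR43469 at 9.01 and 30.7 against 57.2 and 10.9, and that in lncRNA:CR46336 and lncRNA:CR46337 (12905129 to 12905770) at 16.5 and 2.28 against 30.0 and 6.38. Control replicate 1 was the highest library at each. No vg region was in both lists of 1 genotype and neither of the other, but in lists cut to equal length 2 were Osa-deGrad-only and 1 control-only. The cut made these calls. It took out control replicate 2 peaks at percentiles of 20.3 (in AspRS and Nmda1) and 19.4 (in NAT1). At 12908708 it took out the Osa-deGrad replicate 2 peak at 11.2.

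At sd (X, 15804370 to 15827682, Dmel_CG8544), the gene outside chromosome 2, lay the strongest region of all 5 genes by mean rank. It stood near the top of every list. It lay 7934 bp inside the lower-coordinate end (15811618 to 15812734), with ranks of 96.3 and 98.9 in Osa-deGrad wings, against 97.9 and 91.6 in controls. Its percentiles in the deposited lists were 97.9 and 99.5 against 98.8 and 96.3, and it was peak number 86 of Osa-deGrad replicate 2. The next region (15812881 to 15813727) ranked at 83.9 and 47.9 against 80.5 and 38.0, so replicate 1 was the higher library in both genotypes.

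The region at the lower-coordinate end of sd had the largest positive difference, Osa-deGrad minus control, among the 37. Its summit lay 46 bp outside the gene (15804085 to 15804535). It ranked at 55.7 and 75.2 in Osa-deGrad wings, against 15.6 and 44.6 in controls, or 65.4 ± 13.8 against 30.1 ± 20.5 (SD, n = 2 each). Both Osa-deGrad libraries exceeded both controls, by 40.1 points in replicate 1 and 30.5 in replicate 2. In all, 2 of the 9 sd regions in all 4 lists ranked higher and 2 lower, beside 17.0% and 16.5% of those on X. The other 3 separated regions of the window stood at neighbours. The region 18 bp from an end of Chc, the clathrin heavy chain gene, ranked at 30.0 and 28.2 against 9.91 and 9.01. A region within Chc (15834603 to 15834895) was lower, at 6.24 and 10.6 against 13.7 and 23.3, as was the region 4 bp from an end of Paf-AHalpha, at 0.842 and 25.9 against 47.2 and 29.1. Genotypes overlapped at the remaining 3 regions in all 4 lists. That 2 bp from an end of mRpS30, a mitochondrial ribosomal protein gene, ranked at 14.8 and 41.5 against 3.46 and 31.0, that 48 bp from an end of Rhp at 29.9 and 69.6 against 63.4 and 72.8, and that inside sd and lncRNA:CR44384 at 7.13 and 21.1 against 9.94 and 7.37. No sd region was in both lists of 1 genotype and neither of the other, except 1 in Osa-deGrad only when summits within 250 bp were joined. Of its 28 regions 14 were in 1 list, 7 of them in Osa-deGrad replicate 2, beside 2266 of 8275 over all regions. Beside the gene ends, a region 318 bp inside the lower-coordinate end was in both replicate 2 lists, and 1 near the upper end (15827394 to 15827529) was in Osa-deGrad replicate 1 alone.

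The ap locus (2R, 5706202 to 5727525, Dmel_CG8376) held the only 2 regions found in both Osa-deGrad lists and no control list as deposited; in lists of equal length the second stayed so and the first did not. The first (5702319 to 5702653) lay 3665 bp before ap, inside the neighbouring gene vlc, at percentiles of 20.5 and 10.2. The second (5745085 to 5745535) lay 17821 bp past ap, between genes, at percentiles of 31.6 and 25.6. All 4 values were in the lower part of their lists, where a peak missing from the other lists can be one just under the caller's threshold. The region next to the first (5701923 to 5702199), 35 bp from the end of vlc, was in all 4 lists with overlapping ranks of 16.0 and 33.3 against 27.7 and 20.6.

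At the upper end of ap itself lay its strongest region by mean rank (5726546 to 5727390, summit 432 bp inside the gene). It ranked at 93.4 and 94.6 in Osa-deGrad wings, against 54.5 and 90.8 in controls, or 94.0 ± 0.81 against 72.6 ± 25.7 (SD, n = 2 each). It was the 1 separated region of the 4 at ap in all lists (arm 2R, 19.2% higher). Both Osa-deGrad libraries were above both controls, but control replicate 1 made most of the gap. The difference of 21.4 points was 2.60 without that library. A second peak 25 bp outside this end (5727475 to 5727688) was in Osa-deGrad replicate 1 alone. The remaining 3 shared regions lay near ends of scaf, Cndp2 and vlc, and their genotypes overlapped. The strongest of them, 14293 bp before ap and 186 bp from scaf, ranked at 72.3 and 55.8 against 57.8 and 80.4.

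Separated regions of the 2 directions lay at different distances from gene ends. Of the 6 ranked higher, 4 lay with the summit no more than 500 bp from a gene end, and of the 8 ranked lower 1 did. Over all regions in all 4 lists the shares were 60.5% of 1422 ranked higher and 32.1% of 1388 ranked lower. The median rank difference of the member regions, Osa-deGrad minus control, was 2.98 points for the 18 near a gene end and -11.1 for the other 19. The medians over all regions were 4.21 near gene ends and -3.04 farther away. The 5 genes thus had the same signs as the whole lists, and nothing particular to them can be read from these values.

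**Figure D4:**
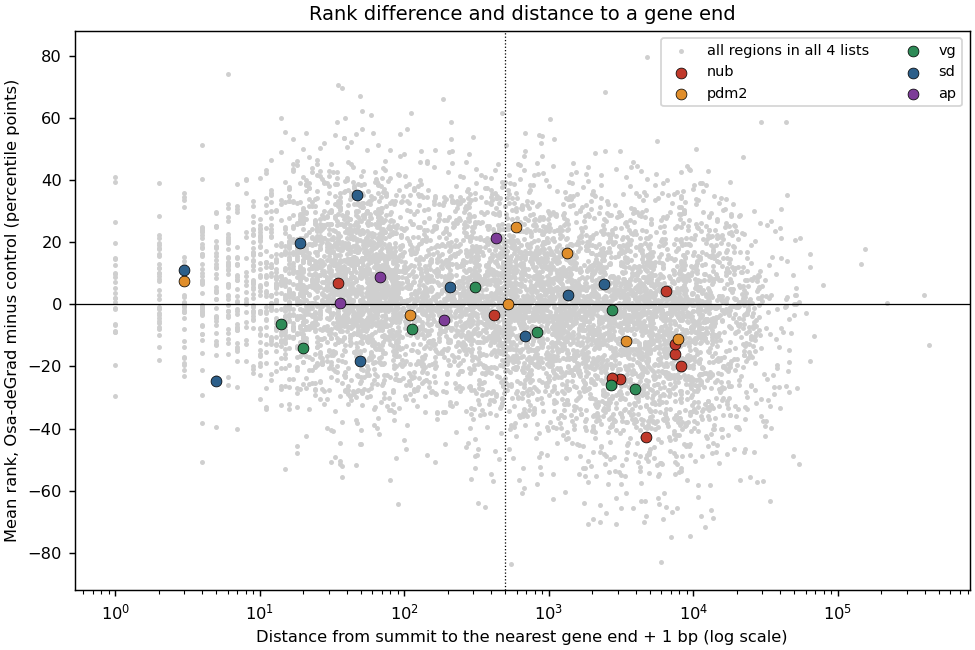
Difference in mean rank (Osa-deGrad minus control, percentile points) against how far the summit lies from the nearest gene end, plus 1 bp (log scale), for all regions in all 4 lists (grey) and those of the 5 genes (coloured). The dotted line is 500 bp; 10 of the 18 coloured points to its left and 6 of the 19 to its right lie above 0.

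Partners and targets of the 5 factors were examined in the same way. The partners were Chi and Ssdp, whose products form a complex with Apterous, Bx, whose dLMO product antagonises that complex, yki and Tgi, whose products bind Scalloped, and ex, an upstream regulator of Yorkie. Their windows held 122 regions, with 44 in all 4 lists, 3 in Osa-deGrad only and 4 in control only. The 13 targets (Ser, fng, Dr, caps, trn, salm, salr, kni, Dll, ct, bs, wg and Diap1) had 216 regions, with 72, 4 and 10 in these classes. Over the 19 genes, Osa-deGrad-only regions made up 2.07% and control-only regions 4.14%, beside 2.20% and 3.58% of all regions. Of the 116 in all 4 lists, 16 (13.8%) ranked higher and 26 (22.4%) lower in Osa-deGrad, beside 18.0% and 17.6% of all 7900 regions. The difference from these shares was not tested.

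The control-only regions lay at 9 of the 19 genes. At ex 3 lay within the gene, the strongest (2L, 437750 to 438123) at percentiles of 53.2 and 63.8. At Ser, which encodes a Notch ligand under the control of Apterous, there were 3, at percentiles between 14.9 and 46.1. The spalt gene salr had 1 (2L, 11378856 to 11379571) at 63.4 and 74.3, and salm had 2. Bx, fng, Dll, bs and Diap1 had 1 each. Osa-deGrad-only regions were found at Ssdp, Bx, yki, fng and ct, 1 each, and 2 at bs, the serum response factor gene. The strongest of these lay 822 bp inside an end of bs, at 67.5 and 68.2. Chi, Tgi, Dr, caps, trn, kni and wg had no region of either kind.

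The 20 kb limit of the windows fell in stretches with weak and middling peaks. The outermost peaks kept lay between 17821 and 19362 bp from their gene, at percentiles from 13.9 to 66.2 of their lists. The nearest peaks left out lay between 20241 and 27687 bp away, at percentiles from 1.51 to 75.7, the last being the region beside pdm2 that the window of pdm2 holds.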

How the data were processed

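The authors deposited 1 narrowPeak list per library on dm6, so peaks were called per library. Per the submitters' processing notes, which give no roles, the tools were MACS2 2.1.2, deepTools 2.4.1, Picard 2.2.4, SAMtools 1.9 and Bowtie2 2.3.4.1. The settings of the caller were not given in the sources used here. Per the file format, the deposited lists hold a fold enrichment (a ratio to the local background), −log10 p-values and −log10 q-values, a score that is 10 times the −log10 q cut to an integer, and the summit offset. The lowest deposited −log10 q was 1.31 to 1.40. Read depth is unknown, and a missing peak can be one under the caller's threshold. The values are the authors' own and were used within lists. Between 86.5 and 90.2% of peaks per list shared their −log10 q with another peak, and ties got the mean rank.

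Peaks were merged when they overlapped by at least 1 bp, with the strongest peak standing for a region (Python 3.11.15, pandas 2.3.3). Merging and ranking were tested on simulated data. Gene positions came from the RefSeq table of Release 6 plus ISO1 MT, without strand or exons, so the start site and intron or exon are not given and "lower-coordinate end" is used. No genome sequence was used here, so the planned promoter motifs were not searched. The series' design text names another assay and tissue than the sample labels, which were followed. Named regions were those in 1 genotype only, the 2 with the highest mean rank per gene, those within 500 bp of the gene's ends, and the 3 largest rank differences in each direction. Other regions in all 4 lists were added after their values were seen. Genes and lists were chosen with earlier results of these data known.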

Additional observations from a re-analysis of the deposited data

How the results depend on the processing

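No paired analysis was possible because the results come from no test, so no fit could hold a replicate block. As a tally of same-numbered libraries, Osa-deGrad ranked above control in both pairs at 8 of the 37 shared regions and below in both at 12 (2226 and 2068 of all 7900). These counts were 0 and 5 at nub, 3 and 0 at pdm2, 0 and 4 at vg, 4 and 3 at sd and 1 and 0 at ap. The range over the settings that leave out 1 library was 91 to 95 for the number of member regions (102 with all), 36 to 46 for regions in all lists (37), 3 to 16 for Osa-deGrad-only (2), 1 to 14 for control-only (1), 10 to 18 for regions ranked higher (6) and 11 to 19 for regions ranked lower (8). In these settings 1 list stands for a genotype, so separated and specific regions become more frequent by construction. At nub, 4 to 8 regions then ranked lower and 1 or 2 higher (4 and 0 with all libraries). At pdm2, 3 to 6 ranked higher and 0 to 3 lower (3 and 0). The 3 lower calls at pdm2 came without Osa-deGrad replicate 1. The sign of the 6 largest rank differences is fixed by how the regions were chosen, so only their size is given. Without control replicate 1 it was 17.9 at the sd end, 2.60 at ap, -26.3 at nub and -11.96 at vg (12895324), against 35.3, 21.4, -42.8 and -27.3. Without control replicate 2 there was no value for vg 12895324 and 12909584, as no region at their summits was in all remaining lists. At pdm2 (12656456) the difference was 12.03 without Osa-deGrad replicate 2 and 41.7 without Osa-deGrad replicate 1, against 25.01.

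Stricter peak lists leave fewer regions by construction. Shares over all merged regions were not computed for the changed settings, so these counts cannot be set beside a background. With a −log10 q of at least 5, 23 of 71 regions were in all 4 lists, with 3 ranked higher and 3 lower. Then 0 were Osa-deGrad-only and 4 control-only (the nub region, and 12895324, 12908708 and 12909584 at vg). At these vg regions the cut took out weak Osa-deGrad peaks. That of Osa-deGrad replicate 2 at 12909584 had a −log10 q of 4.998. The 2 Osa-deGrad-only regions at ap also lost peaks to the cut. With at least 10 there were 45 regions, 11 in all lists, 0 Osa-deGrad-only and 1 control-only (12576122 at nub), with 2 ranked higher and 1 lower, among them 1 lower at nub and 1 higher at pdm2. The ap difference was then 44.9. Control replicate 1 had a −log10 q of 10.03 there, just above the cut, so its rank was near the lowest by construction. In lists of equal length, 2 regions were control-only (nub, and 12908708 at vg) and 3 Osa-deGrad-only (12879484 and 12916379 at vg, and 5745085 at ap, but not 5702319 at ap). When summits within 250 bp were joined, 15828194 at sd was Osa-deGrad-only beside the 2 at ap. When peaks had to overlap by at least 50% of the shorter one, 1 was Osa-deGrad-only (5702319 at ap, but not 5745085 at ap).

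With gene bodies and 5 kb there were 54 regions, 20 in all lists, 1 Osa-deGrad-only and 3 ranked lower, 2 of them at nub. With gene bodies alone there were 34 regions, 15 in all lists, 0 of either genotype only, 2 ranked higher and 3 lower, 2 of them at nub, and 0 ranked higher at pdm2. Without nub (added after seeing the data) 0 were control-only and 4 ranked lower. Ranking the fold enrichment gave 6 higher and 7 lower. Of 122 alternative counts 70 stayed within 1.5 times the reported value. The cause of other moves was not tested. Depth is unknown, so a missing weak peak does not show a closed region.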
